A study of Mus musculus with 34 samples.

Results

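The transcriptomes of 11 single mouse zygotes were compared, 6 injected with mRNA for the R442Q form of CHK1 and 5 injected with mRNA for wild-type (WT) CHK1, across all genes and by gene function. They are 11 of the 34 embryos of the study, chosen by the stage and genotype in their labels, and 12420 of the 49686 genes in the zygote table had enough counts to be tested. The other embryos were 4 WT and 5 R442Q late 2-cell embryos, which are used below only beside zygote results, and 7 WT and 7 R442Q blastocysts, which were not used. Every embryo of both groups carried injected CHK1 mRNA, so WT here means overexpressed wild-type CHK1; uninjected zygotes are not analysed here. The zygotes were kept in KSOM medium and, per the labels, had no inhibitor treatment. The blastocysts alone had been cultured with a CHK1 inhibitor at 30 nM. The zona pellucida, the coat around the egg, was removed before lysis. The labels call the groups overexpression and do not give the mouse strain, the species of the CHK1 coding sequence, the hour of collection or a batch. Nothing says which zygotes came from one female, so p-values measure the spread between these zygotes only.

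CHK1, a kinase of the replication and DNA damage checkpoint, is activated by ATR. It keeps CDK1 inactive through CDC25 phosphatases and WEE1-type kinases, which holds a cell back from mitosis. The zygote lives at first on RNA stored by the oocyte, which is polyadenylated, translated and degraded on a schedule, while its own genome begins with a minor wave of transcription that grows into major activation at the 2-cell stage. In mouse, families such as Zscan4, Usp17l and the Eif1a-like genes mark this early embryonic transcription. A change in the level of an mRNA in a zygote can therefore reflect stored RNA, its decay or polyadenylation, or new transcription, and poly(A)-primed libraries do not separate these.

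Total counts were between 7183632 and 11296522 per zygote and did not differ between genotypes by an exact two-sided permutation test (p = 0.413). More genes were detected in R442Q zygotes: 13001 ± 470 genes (SD, n = 6) reached 1 CPM (counts scaled to library size by TMM) against 12218 ± 196 in WT (SD, n = 5). The ranges, 12482 to 13775 and 12030 to 12468, did not overlap (exact two-sided permutation p = 0.00866, 0.026 after Benjamini-Hochberg adjustment over 3 library measures; the smallest p possible is 0.00433). The part of this difference in the calls below was not tested. All 12 oocyte and zygote markers, such as Zp3 and Gdf9, passed the filter on low counts, 1 rose and 4 fell, and their summed level was 11171 to 13510 CPM in WT and 10292 to 12814 CPM in R442Q zygotes. Of 14 markers of cumulus and granulosa cells, which surround the egg, 3 passed the filter and 0 were called, with sums of 37.5 to 49.03 CPM in WT and 31.2 to 41.99 CPM in R442Q. Amh, which defines granulosa cells, was at 0 in every zygote, but it was the only 1 of the 14 markers without counts in any zygote. Of 6 sperm transcripts 1 passed the filter and 0 were called. Pearson correlations of log2 CPM were 0.944 to 0.959 among WT zygotes, 0.933 to 0.951 among R442Q zygotes and 0.897 to 0.943 between genotypes.

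The injected gene was examined first. Chek1 (ENSMUSG00000032113.16; GRCm38 chr9:36708482-36727065, - strand) stood at 7520, 4534, 8233, 5113 and 4500 CPM in WT zygotes 1 to 5, and from 5834 to 7523 CPM with a median of 7107 in the 6 R442Q zygotes. The values of the genotypes overlapped, and the difference of the mean log2 CPM, 0.24, was not past the spread between zygotes (exact two-sided permutation p = 0.199, n = 5 and 6). Since the species of the injected coding sequence is not given, how far its reads are counted under Chek1 is not known. The count table also holds no allele, so neither the R442Q change nor the share of injected mRNA can be read from it.

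In zygotes 1643 of the 12420 tested genes (13.2%) differed between the genotypes at an adjusted p of 0.05, 783 higher (6.3%) and 860 lower (6.92%) in R442Q. The counts of each gene list below are to be read beside these shares, and several lists lie near them. The mitotic entry switch had 5% of its tested members higher and 5% lower. Glycolysis, pyruvate and the TCA cycle had 4.17% and 4.17%, and cholesterol and lipid synthesis 5% and 5%. The medians were alike in size, but large changes were more frequent among the rises. The genes that rose had a median log2 fold change of 0.71, and 305 of them rose at least 2-fold and 185 at least 4-fold, while those that fell had a median of -0.72, with 171 at least 2-fold and 7 at least 4-fold. However, 201 of the 305 and 152 of the 185 passed the filter on low counts, described below, through the R442Q zygotes alone. The contrast in large changes is therefore no separate evidence. The median over all tested genes was 0.01. The R442Q zygotes were all above all WT zygotes for 432 of the 783, and all below for 502 of the 860; over all tested genes the groups did not overlap in 8.71%, 4.04% with R442Q above and 4.67% with R442Q below WT. The split by direction moved with the scaling: upper-quartile factors gave 1018 higher and 654 lower, library totals alone gave 502 and 1338, and limma on log2(FPKM + 1) gave 411 and 1231, with the median of all genes moved to 0.07, -0.11 and -0.11. In a fit that also held the late 2-cell embryos, and so shared 1 estimate of the spread with them, 270 genes passed, 197 higher and 73 lower, and 225 of the 1643 were among them. Of the 206 called genes that the naming rule picked, 158 missed the threshold in that fit, 102 of them in no other alternative without a replicate block, and 34 lost the call when some single zygote was left out. Below, a gene of that rule whose call was lost in any other alternative without a block is marked with it. Genes named outside the rule were chosen after their values were seen and were not followed over the alternatives. Where genes overlap on opposite strands, as Ctnnb1, Hsp90b1, Manf, Setdb1 and Tsc2 do with others, reads cannot be assigned, since the use of strand is not given in the sources used here.

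**Figure D1:**
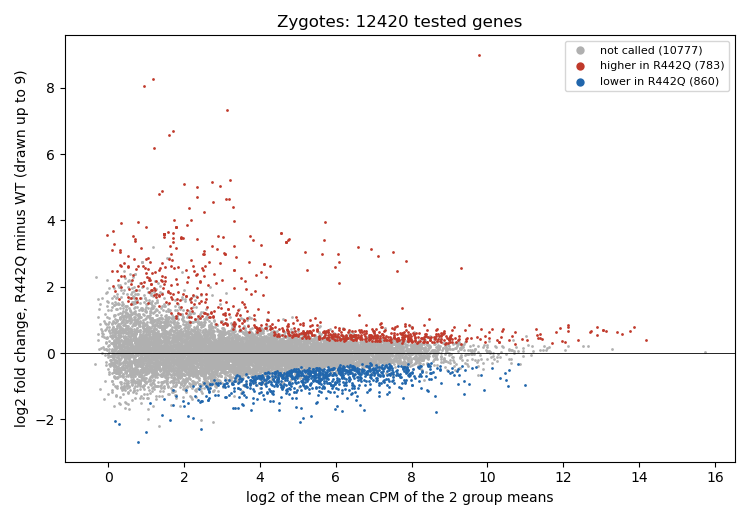
Log2 fold change of each tested gene in zygotes (R442Q minus WT, drawn up to 9, vertical axis) against the log2 of the average of both group means in CPM (horizontal axis). Each point is a gene: the 783 genes higher in R442Q reach far larger changes at low levels than the 860 lower genes, and at high levels most calls lie within a 2-fold change, apart from a band of genes near a log2 fold change of 3 and AY036118, drawn at 9. Of the 185 genes that rose at least 4-fold, 152 passed the filter on low counts through the R442Q zygotes alone.

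The called genes were spread unevenly over expression levels and annotation classes. Tested genes were cut into 5 equal bins of 2484 genes by mean log2 CPM. In bin 1, the lowest, 150 were higher and 9 lower, in bin 4 they were 119 and 292, and in bin 5 they were 331 and 338. Of the genes that rose, 126 had a WT mean under 1 CPM, and of those that fell 4 had an R442Q mean under 1 CPM. The filter on low counts asked for enough counts in 5 zygotes of either genotype. It was met by 1014 genes in at least 5 R442Q zygotes but not in all WT zygotes, and of these 201 were called higher and 0 lower. A further 254 met it in all WT zygotes but in fewer than 5 R442Q zygotes, with 0 higher and 9 lower. A gene that passed in this way was chosen by the genotype in which it is high, so its direction is no separate evidence. The 201 make up most of the larger rises, with 201 of the 305 genes that rose at least 2-fold and 152 of the 185 that rose at least 4-fold. Of the rises counted in the lists below, 1 each passed in this way for maternal mRNA, H3K9 methylation, cytoplasmic ribosomal proteins, nuclear pore, cholesterol and lipid synthesis, tubulins and imprinted genes. Of genes named below it holds also for Zscan4c, Zscan4f, Usp17la, Gm4340, Zfp352, Gm48422, AY036118 and Psat1. Of 10969 protein-coding genes 627 rose and 825 fell. Among 487 lincRNA genes 44 rose and 6 fell, and among 46 unprocessed pseudogenes 8 rose and 0 fell.

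**Figure D2:**
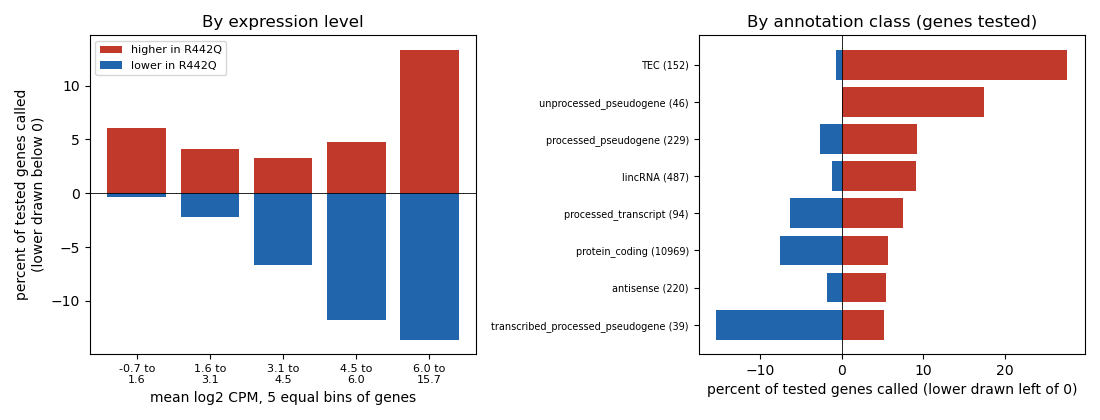
Percent of tested genes called higher (red) and lower (blue, drawn to the other side of 0) in R442Q zygotes, in 5 equal bins of the mean log2 CPM (left) and by annotation class with the number of genes tested (right; classes with at least 30). Lower genes are rare in the lowest bin (9 of 2484), and 42 of 152 TEC genes, a class of unconfirmed transcripts, were higher.

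Genes of the Zscan4, Usp17l and related 2-cell families were among those that rose, but Tcstv1 and Tcstv3 of the same list were not. Of the 30 listed 18 passed the filter on low counts, 10 of them through the R442Q zygotes alone, and 9 of these rose; their direction is no separate evidence. Of the 6 that passed it in all WT zygotes, 3 rose and 0 fell. In all 14 rose, and 10 of the 14 were also called higher in the fit with late 2-cell embryos. Zscan4f (ENSMUSG00000070828.10; GRCm38 chr7:11397915-11402318, + strand), of a family of zinc finger genes tied to telomere maintenance and the 2-cell state, stood at 1.2, 0, 0.240, 0.663 and 1.33 CPM in WT zygotes 1 to 5, and from 1.70 to 62.1 CPM with a median of 8.21 in the 6 R442Q zygotes. All R442Q zygotes lay above all WT zygotes, and R442Q zygote 2 was highest (log2 fold change 4.65 ± 0.87 (SE), adjusted p = 0.0025). Its relatives Zscan4c (3.52, adjusted p = 0.0053 for the log2 fold change) and Zscan4d (2.43, adjusted p = 0.004) rose too, while Zscan4b, at 0.83 ± 0.53 (SE, adjusted p = 0.35), did not pass. Zscan4f shares 93.7% of its 50-base stretches with other annotated genes, so reads may have been divided among family members. The Usp17l genes encode deubiquitinating enzymes, and 5 of them rose. Usp17la, with 19.9% of its stretches shared, was at 1.63 ± 0.931 CPM (SD, n = 5) for WT and 11.04 ± 4.72 CPM (SD, n = 6) for R442Q (log2 fold change 2.75 ± 0.43 (SE), adjusted p = 0.00086). Gm6763 (3.48 to 43.3 CPM, log2 fold change 3.63 ± 0.40 (SE), adjusted p = 0.00013) and Gm4340 (4.56 to 49.7 CPM, log2 fold change 3.44 ± 0.67 (SE), adjusted p = 0.0033) also rose, and nearly all their stretches occur in other genes. Zfp352, a zinc finger gene active in 2-cell embryos, rose from 3.89 to 18.9 CPM (log2 fold change 2.26 ± 0.56 (SE), adjusted p = 0.014). Tcstv1 and Tcstv3 had log2 fold changes of -0.45 and -0.44 (adjusted p = 0.20 and 0.34), and Duxf3, from the Dux family of activators of these genes, had 1.03 ± 0.35 (SE, adjusted p = 0.064). The summed level of the 30 listed genes in the table was 97.1 to 192 CPM in WT and 227 to 837 CPM in R442Q zygotes, so even in R442Q these families were a small part of the RNA.

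Because Zscan4c and Zscan4f rose together and their transcripts are hard to tell apart, the 250 bases before their starts are shown, from RefSeq on GRCm38.p6, 5′ to 3′ on the gene's strand (chr7:11005495-11005744, + strand, and chr7:11397665-11397914, + strand). Capitals mark TATAAA, searched on both strands; 7.57% of the promoters of genes that rose held it in this window, 5.33% of those of genes that fell, and 6.94% of the 9069 tested genes with a RefSeq promoter. The genes and motif were chosen after their values were seen.
Zscan4c: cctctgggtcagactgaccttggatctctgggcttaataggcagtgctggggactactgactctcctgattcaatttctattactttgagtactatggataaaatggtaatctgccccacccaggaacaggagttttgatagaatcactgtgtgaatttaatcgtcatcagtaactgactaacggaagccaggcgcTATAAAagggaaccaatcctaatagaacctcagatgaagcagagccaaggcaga
Zscan4f: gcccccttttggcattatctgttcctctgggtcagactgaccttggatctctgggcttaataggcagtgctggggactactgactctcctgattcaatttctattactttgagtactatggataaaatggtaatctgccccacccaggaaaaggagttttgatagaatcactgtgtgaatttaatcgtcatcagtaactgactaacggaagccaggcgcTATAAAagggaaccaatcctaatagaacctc

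A second set of rising genes was joined by sequence. Of the called genes outside the protein-coding class, 16 rose at least 4-fold to a mean of at least 50 CPM in R442Q while having counts in WT zygotes, a rule chosen after the values were seen. Their log2 fold changes, which that rule bounds from below, were 2.12 to 3.94. These and the levels of the 16 in zygotes describe the choice and do not support a rise. In 14 of them at least 50% of the 50-base stretches of the longest transcript occur in another member of the same 16. Their summed level was 193, 726, 665, 1012 and 104 CPM in WT zygotes 1 to 5, and from 2184 to 6768 CPM with a median of 2874 in R442Q. R442Q zygote 2 was highest here as it was for Zscan4f. The most abundant, Gm48271, was at 183 ± 132 CPM (SD, n = 5) for WT and 1087 ± 585 CPM (SD, n = 6) for R442Q (log2 fold change 2.57 ± 0.52 (SE), adjusted p = 0.004). Gm48422 went from 6.48 to 99.1 CPM (log2 fold change 3.94 ± 0.70 (SE), adjusted p = 0.0018). Of 12 other tested genes with at least 100 of these stretches, 9 rose and 2 fell, but 7 of the 9 passed the filter through the R442Q zygotes alone, so their direction is no separate evidence. Among the others the protein-coding Tmem72 rose from 120.3 to 311 CPM (log2 fold change 1.37 ± 0.19 (SE), adjusted p = 0.00045) and shares 4842 stretches with the set. Gm38271 rose as well, from 5.9 to 17.2 CPM. D10Wsu102e and A530040E14Rik, which were more abundant, fell from 950 to 716 CPM and from 619 to 409 CPM (adjusted p = 0.024 and 0.023). Slc25a20 was not called, so these relatives had no single direction. In late 2-cell embryos 0 of the 16 were called, with log2 fold changes of -2.16 to 0.76. The genes share reads, so they are not independent measurements, and no annotation of repeated elements was used.

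**Figure D3:**
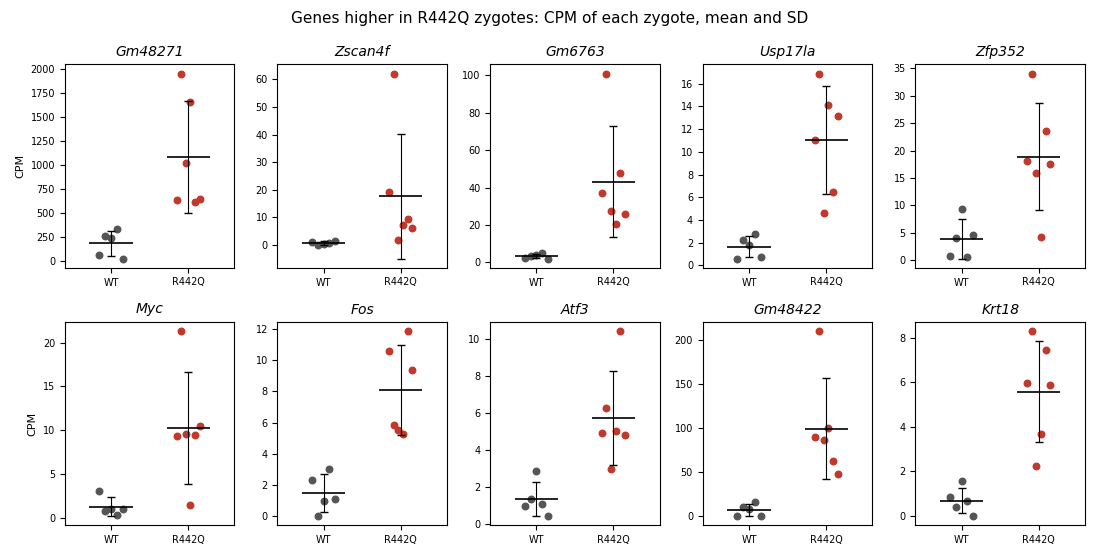
CPM of each zygote (points; WT grey, R442Q red) for 10 genes higher in R442Q, with the mean and SD of 5 WT and 6 R442Q zygotes; vertical axes differ between genes. The genotypes do not overlap for Gm48271, Zscan4f, Gm6763, Usp17la, Fos, Atf3, Gm48422 and Krt18, and 1 R442Q zygote lies within the WT range for Zfp352 and for Myc.

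Other rising genes were also hard to assign. Of the genes that rose, 16.8% shared at least 50% of their stretches with other genes, against 4.56% of those that fell and 6.55% of all tested genes. Some runs of neighbouring tested genes held several that rose: 9 of 14 on chr5:93924777-94626848, among them Gm6502, A430089I19Rik and Gm16429, 8 of 12 on chr10:102319613-104196522 with Gm6763 and Gm4340, 7 of 9 on chr2:83644435-83993045, 6 of 9 on chr10:100335676-100382560, and 6 of 10 on chr7:103415072-104862667 with Usp17la (GRCm38). A total of 21 called genes in 8 sets had the same counts as another called gene, and 2 of these runs hold fewer measurements than genes. On chr2 6 of the 7, such as Gm13691 and Gm13698, had identical counts, which leaves 2 distinct measurements. In the run with Gm6763, 5 of the 8 fell into 2 identical sets, Gm6763 with Gm8764 and Gm21304 with Gm21312 and Gm20765, which leaves 5. All 9 rises on chr5, all 6 of the run on chr10 from 100335676, 6 of the 7 on chr2, 2 of the 8 with Gm6763 and 1 of the 6 with Usp17la passed the filter on low counts through the R442Q zygotes alone. The 15 abundant TEC genes, with a mean of at least 1000 CPM, all rose, by log2 fold changes of 0.59 to 0.79, and held 6.4 to 8.72% of counts in WT and 9.91 to 13.3% in R442Q zygotes. They share 10.99 to 100% of their stretches with other genes, and Gm37110 and Gm44183 among them had identical counts. The 15 are therefore not independent measurements. Without the TEC genes, which was tried once the values were known, the test called 1591 genes, 1575 of them among the 1643. AY036118, the largest rise, was listed at 0 in all 5 WT zygotes and at 688 to 2958 CPM in R442Q. It lies wholly within the ribosomal RNA gene CT010467.1, which held 35208 to 69093 CPM in R442Q and 41171 to 64607 CPM in WT zygotes. AY036118 took 1.1 to 5.19% of the pair's sum in R442Q, and the sum itself was 3.68 to 6.87% of counts in R442Q and 4.52 to 6.59% in WT. CT010467.1 was not called (log2 fold change 0.03, adjusted p = 0.94) and all stretches of AY036118 are shared, so its value is uncertain; the part of read division in it was not tested.

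Immediate early genes, which respond to signals without new protein synthesis, were low in WT zygotes. Of the 34 listed 20 passed the filter on low counts, 7 of them through the R442Q zygotes alone, and the 4 that rose were all among these 7. Of the 11 that passed it in all WT zygotes 0 were called. The fit with late 2-cell embryos called 1 of the list higher and 0 lower. Myc, a growth-promoting transcription factor, stood at 3.12, 0.837, 1.08, 0.398 and 0.996 CPM in WT zygotes 1 to 5, and from 1.47 to 21.3 CPM with a median of 9.50 in the 6 R442Q zygotes, with 1 R442Q zygote within the WT range (log2 fold change 2.98 ± 0.57 (SE), adjusted p = 0.0028; lost with FPKM without a filter). Fos, a subunit of AP-1, stood at 2.28, 0, 0.959, 3.05 and 1.11 CPM in WT zygotes 1 to 5, and from 5.25 to 11.9 CPM with a median of 7.62 in the 6 R442Q zygotes, without overlap (log2 fold change 2.46 ± 0.56 (SE), adjusted p = 0.0084). Atf3, a stress-induced repressor, rose from 1.34 to 5.74 CPM (log2 fold change 2.09 ± 0.46 (SE), adjusted p = 0.0067). Dusp6, a phosphatase that limits ERK signalling, went from 2.22 to 11.7 CPM (log2 fold change 2.38 ± 0.59 (SE), adjusted p = 0.013; lost with FPKM without a filter). Of 30 tested transcription factors tied to genome activation 5 rose and 0 fell, 2 of the 5 having passed the filter through the R442Q zygotes alone. The fit with late 2-cell embryos called 1 higher and 0 lower. Dppa3, a maternal factor that guards DNA methylation, rose from 2367 to 3203 CPM (log2 fold change 0.44 ± 0.08 (SE), adjusted p = 0.0019; lost with FPKM without a filter). Trim24, a transcriptional cofactor, went from 234 to 355 CPM (log2 fold change 0.602 ± 0.11 (SE), adjusted p = 0.0028). Obox2, of a homeobox family of oocyte and early embryo, fell from 957 to 499 CPM (log2 fold change -0.94 ± 0.13 (SE), adjusted p = 0.00045), 1 of 6 tested members of its family, and 62.98% of its stretches are shared. Krt18, a keratin of the trophectoderm, rose from 0.696 to 5.58 CPM (log2 fold change 2.99 ± 0.59 (SE), adjusted p = 0.0033), 1 of 3 tested trophectoderm markers, having passed the filter through the R442Q zygotes alone.

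Of 32 tested genes of p53 and its targets 4 rose and 4 fell, so the list had no single direction. In the fit with late 2-cell embryos 1 rose and 0 fell. Plk2, a kinase induced by p53, stood at 4.93, 6.38, 7.08, 4.24 and 2.99 CPM in WT zygotes 1 to 5, and from 11.8 to 30.6 CPM with a median of 19.9 in the 6 R442Q zygotes, without overlap (log2 fold change 1.93 ± 0.29 (SE), adjusted p = 0.00063). Apaf1, which assembles the apoptosome, rose from 6.41 to 14.7 CPM (adjusted p = 0.0068). Gadd45g, which passed the filter through the R442Q zygotes alone, and Mdm2, the negative regulator of p53, rose by log2 fold changes of 1.79 and 0.395 (adjusted p = 0.022 and 0.035). Psrc1 and Ckap2, both spindle proteins, fell by 0.72 and 0.65 on the log2 scale (adjusted p = 0.0031 and 0.0085). Trp53 itself was at 96.7 ± 6.84 CPM (SD, n = 5) for WT and 115 ± 12.1 CPM (SD, n = 6) for R442Q and did not pass (adjusted p = 0.16). In the BCL2 family and caspases 1 of 21 tested rose and 1 fell, against 0 and 1 in that fit. Birc6, an inhibitor of apoptosis, fell from 40.5 to 19.4 CPM (log2 fold change -1.06 ± 0.18 (SE), adjusted p = 0.0013; lost in 2 FPKM fits).

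Among genes whose genotypes did not overlap and whose WT mean was at least 10 CPM, the largest falls were those of Tm2d1, Psma5, Txnip, Zcrb1, Ctnnb1 and Sirt5. Txnip (ENSMUSG00000038393.14; GRCm38 chr3:96557957-96561883, + strand), which binds thioredoxin and limits glucose uptake, stood at 515, 815, 484, 396 and 890.0 CPM in WT zygotes 1 to 5, and from 89.6 to 318 CPM with a median of 179.9 in the 6 R442Q zygotes. All R442Q zygotes lay below all WT zygotes (log2 fold change -1.77 ± 0.27 (SE), adjusted p = 0.00073), and an antisense gene, Gm15441, overlaps it, whose reads cannot be told apart without strand. Ctnnb1, beta-catenin, fell from 165 to 49.6 CPM (log2 fold change -1.73 ± 0.22 (SE), adjusted p = 0.0002). Zcrb1, a protein of the minor spliceosome, went from 110.1 to 32.6 CPM (log2 fold change -1.75 ± 0.19 (SE), adjusted p = 0.00013). Sirt5, a mitochondrial deacylase, went from 96.5 to 30.2 CPM and Tm2d1 from 55.6 to 14.2 CPM, with adjusted p-values of 0.0014 and 0.00017. Of the 35 tested redox genes 1 rose and 6 fell, against 0 and 1 in the fit with late 2-cell embryos. The median of the list was 0.07, with 18 members above 0 and 17 below, and turned to -0.04 with library totals and -0.08 with log2(FPKM + 1). Glrx, glutaredoxin, fell from 342 to 175 CPM (log2 fold change -0.97 ± 0.13 (SE), adjusted p = 0.00039), Txnrd1, thioredoxin reductase, fell by 0.56 on the log2 scale, and Prdx2 rose by 0.47 (adjusted p = 0.008 and 0.0083; Prdx2 was lost in 3 FPKM fits).

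More chaperone genes fell than rose. Of 74 tested heat shock proteins, DnaJ proteins and chaperonin subunits 5 rose and 15 fell, and 1 and 5 of these were also called in the fit with late 2-cell embryos. Hsp90aa1, a cytosolic HSP90, stood at 2151, 2382, 1703, 1841 and 1930.0 CPM in WT zygotes 1 to 5, and from 859 to 1228 CPM with a median of 971 in the 6 R442Q zygotes (log2 fold change -0.999 ± 0.11 (SE), adjusted p = 0.00013), without overlap, although 58.5% of its stretches are shared with other genes. Hspa4 and Dnajc3, a chaperone and an ER co-chaperone, fell from 51.3 to 16.4 CPM and from 196 to 86.4 CPM (log2 fold changes -1.64 and -1.18, adjusted p = 0.00023 and 0.00053). Hspa8, the constitutive HSC70, fell from 161 to 73.9 CPM (log2 fold change -1.12 ± 0.20 (SE), adjusted p = 0.0016). Cct2, Cct3 and Cct5 fell, while Cct7 rose by 0.39 (adjusted p = 0.05). Hsf1, the heat shock transcription factor, rose from 173 to 228 CPM (log2 fold change 0.400 ± 0.12 (SE), adjusted p = 0.034; lost when any 1 of 6 particular zygotes was left out, and in other fits). Bag3, a co-chaperone usually induced by HSF1, rose from 0.622 to 3.36 CPM (log2 fold change 2.43 ± 0.66 (SE), adjusted p = 0.023). It was 1 of 2 among the 5 rises of the list that passed the filter through the R442Q zygotes alone. Proteins of the endoplasmic reticulum (ER) were among those that fell. Manf, a secreted factor of that compartment, fell from 65.6 to 27.2 CPM (log2 fold change -1.27 ± 0.15 (SE), adjusted p = 0.00018). Hsp90b1 (ENSMUSG00000020048.13; GRCm38 chr10:86690209-86705509, - strand), the ER HSP90, stood at 143, 164, 169, 100.5 and 238 CPM in WT zygotes 1 to 5, and from 61.96 to 106 CPM with a median of 72.5 in the 6 R442Q zygotes, with overlap at 1 zygote (log2 fold change -1.08 ± 0.19 (SE), adjusted p = 0.0015). Hspa5, the ER chaperone BiP, stood at 173, 325, 243, 158 and 304 CPM in WT zygotes 1 to 5, and from 79.4 to 174 CPM with a median of 126 in the 6 R442Q zygotes, with overlap (log2 fold change -0.904 ± 0.21 (SE), adjusted p = 0.01). Within 31 tested genes of the unfolded protein and integrated stress response 5 rose and 7 fell, which became 5 and 5 with upper-quartile factors and 5 and 4 with TMM-scaled FPKM and 1 and 2 in the fit with late 2-cell embryos. Of the 5, 3 had passed the filter through the R442Q zygotes alone. Eif2ak4, the amino acid sensing kinase GCN2, rose from 78.6 to 122 CPM (log2 fold change 0.63 ± 0.10 (SE), adjusted p = 0.001). Psat1, of serine synthesis, went from 1.69 to 9.63 CPM (log2 fold change 2.51 ± 0.50 (SE), adjusted p = 0.0035; lost with FPKM without a filter). Atf4 fell by 0.42 on the log2 scale (adjusted p = 0.031; lost when any 1 of 5 particular zygotes was left out, and in other fits).

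Several of the falling ER chaperone genes carry the ER stress response element, a sequence known for binding ATF6 and NF-Y. The element, CCAAT and CCACG spaced by any 9 bases and searched on both strands in the 250 bases before the start, was found in 19 of the 9069 tested genes with a RefSeq promoter (0.21%), in 6 of 657 that fell (0.913%) and 1 of 502 that rose (0.199%). Of the 19, Dnajc3, Creld2, Hsp90b1, Pdia6, Hspa5 and Calr fell and Pan2 rose; the other 12, among them Syvn1, Canx and Derl3, were not called, and the median over the 19 was -0.25. Other motifs were counted in the same promoters. The heat shock element was in 0.609% of those that fell, 0% of those that rose and 0.265% of all tested. The GC box was in 61.2%, 49.6% and 57% of these, the CCAAT box in 40.8%, 33.9% and 37.2%, and the E-box in 8.98%, 10.4% and 8.39%. The ER element was chosen after the fall of Hspa5 and Hsp90b1 was seen. The promoters of 3 members are shown as RefSeq gives them on GRCm38.p6, 5′ to 3′ on the gene's strand, with the element in capitals (chr2:34771840-34772089, + strand; chr10:86705445-86705694, - strand; chr14:118937682-118937931, + strand).
Hspa5: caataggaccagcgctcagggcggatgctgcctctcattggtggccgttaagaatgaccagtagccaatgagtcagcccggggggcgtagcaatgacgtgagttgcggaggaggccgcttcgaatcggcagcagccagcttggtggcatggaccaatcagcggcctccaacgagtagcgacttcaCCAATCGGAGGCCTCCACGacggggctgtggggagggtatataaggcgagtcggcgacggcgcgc
Hsp90b1: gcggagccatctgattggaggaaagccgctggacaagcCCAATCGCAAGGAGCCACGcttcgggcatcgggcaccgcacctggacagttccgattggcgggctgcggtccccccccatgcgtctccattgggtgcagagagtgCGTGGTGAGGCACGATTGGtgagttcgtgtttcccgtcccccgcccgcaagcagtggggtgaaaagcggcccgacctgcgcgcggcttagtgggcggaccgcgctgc
Dnajc3: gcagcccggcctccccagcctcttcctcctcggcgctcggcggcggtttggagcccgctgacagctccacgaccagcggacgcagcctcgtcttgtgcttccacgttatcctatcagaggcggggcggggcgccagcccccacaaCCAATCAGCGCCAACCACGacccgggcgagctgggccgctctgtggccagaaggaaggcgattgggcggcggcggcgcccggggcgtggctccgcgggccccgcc

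The list of nucleolar ribosome assembly held 20 falls, the highest number of any list here but not the highest share. Smaller lists such as the zona pellucida and egg surface (50%) and the oogenesins and oocyte secreted proteins (33.3%) had larger shares of falls. Of 62 tested nucleolar members 20 fell (32.3%, against 6.92% of all tested genes) and 1 rose, with a median log2 fold change of -0.31. The fit with late 2-cell embryos called 3 lower and 0 higher. Their summed level was 5319 to 6218 CPM in WT and 3877 to 4941 CPM in R442Q zygotes, without overlap. Gnl2, a GTPase of the large subunit, stood at 115, 141, 84.7, 71.2 and 83.03 CPM in WT zygotes 1 to 5, and from 19.5 to 61.3 CPM with a median of 28.04 in the 6 R442Q zygotes (log2 fold change -1.58 ± 0.26 (SE), adjusted p = 0.0011), without overlap. Utp4 and Bms1, of the small-subunit processome, fell from 202 to 82.9 CPM and from 467 to 214 CPM (log2 fold changes -1.28 and -1.12, adjusted p = 0.00028 and 0.00053). Ncl, nucleolin, and Nop58, a core protein of box C/D particles, fell by 0.79 and 0.89 on the log2 scale (adjusted p = 0.0024 and 0.0027), and Polr1d and Polr1e, subunits of RNA polymerase I, by 0.50 and 0.69 (adjusted p = 0.0045 and 0.033). Nip7 was the 1 member that rose, by 0.43 (adjusted p = 0.03). Fbl, fibrillarin, was at 1.83 ± 0.634 CPM (SD, n = 5) for WT and 1.42 ± 0.621 CPM (SD, n = 6) for R442Q and did not pass. Of 74 tested ribosomal proteins of the cytoplasm 3 rose and 7 fell, with a median of -0.15, although the fit with late 2-cell embryos called 1 higher and 0 lower. Of 33 aminoacyl-tRNA synthetases 1 rose and 5 fell, with a median of -0.22, against 0 and 1 in that fit. Rars, the arginine enzyme, fell from 65.7 to 22.96 CPM (log2 fold change -1.51 ± 0.19 (SE), adjusted p = 0.0002). Among 42 translation factors 4 rose and 5 fell, which turned to 4 and 2 with RLE or upper-quartile scaling and to 1 and 1 in the fit with late 2-cell embryos. Eif3c fell from 53.3 to 24.9 CPM (log2 fold change -1.096 ± 0.17 (SE), adjusted p = 0.00074) and Eif4g2, a cap-independent initiation factor, rose from 307 to 494 CPM (log2 fold change 0.68 ± 0.11 (SE), adjusted p = 0.00089).

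Of 40 tested proteasome subunits 10 fell and 0 rose, with a median of -0.32. The fit with late 2-cell embryos called 1 lower and 0 higher. The summed level was 4038 to 4336 CPM in WT and 3073 to 3883 CPM in R442Q. Psma5, of the catalytic core, stood at 80.2, 65.8, 53.7, 87.1 and 34.1 CPM in WT zygotes 1 to 5, and from 5.62 to 30.2 CPM with a median of 17.8 in the 6 R442Q zygotes (log2 fold change -1.91 ± 0.33 (SE), adjusted p = 0.0016), without overlap; 55.4% of its stretches are shared and 1700010K24Rik overlaps it on the other strand. Psmd1 and Psmc2, of the regulatory particle, fell from 211 to 122 CPM and from 76.6 to 42.5 CPM (log2 fold changes -0.79 and -0.85, adjusted p = 0.00074 and 0.0012). Ube2t, the ubiquitin-conjugating enzyme of the Fanconi pathway, fell from 236 to 104 CPM (log2 fold change -1.18 ± 0.11 (SE), adjusted p = 6.3e-05), without overlap. The 46 tested conjugating enzymes and cullins gave 3 higher and 4 lower with a median of 0.04, and the balance turned with upper-quartile scaling (7 and 3) and TMM-scaled FPKM (5 and 3). Library totals alone gave 0 and 7, removal of the length and GC trend 0 and 6, and the fit with late 2-cell embryos 0 and 2.

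**Figure D4:**
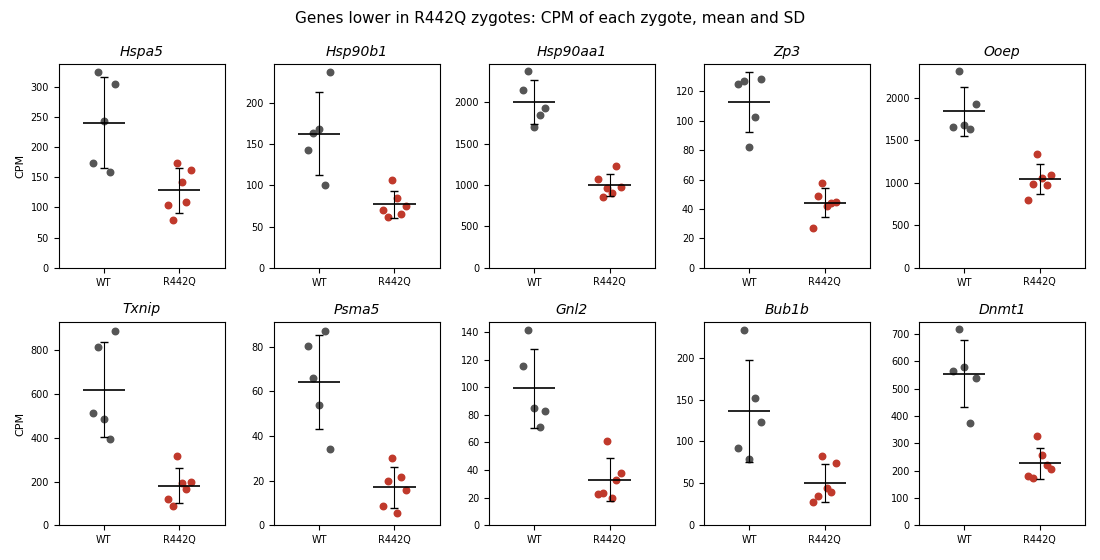
CPM of each zygote (points; WT grey, R442Q red) for 10 genes lower in R442Q, with the mean and SD of 5 WT and 6 R442Q zygotes; vertical axes start at 0 and differ between genes. The genotypes do not overlap except for Hspa5, Hsp90b1 and Bub1b, where the highest R442Q zygotes reach the lowest WT zygotes.

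In the checkpoint pathway of CHK1 1 of 23 tested genes rose and 5 fell. In the fit with late 2-cell embryos 0 and 0 were called, as for the mitotic entry switch and the G1 and S list. Clspn, claspin, the adaptor through which ATR activates CHK1, fell from 125 to 75.5 CPM (log2 fold change -0.73 ± 0.14 (SE), adjusted p = 0.0024). Timeless, of the fork protection complex, went from 178 to 111 CPM (log2 fold change -0.68 ± 0.17 (SE), adjusted p = 0.015). Rad50 and Brca1 fell by 0.45 and 0.84 on the log2 scale (adjusted p = 0.014 and 0.022; Brca1 was lost without WT zygote 2 and without WT zygote 3). Of 20 tested genes of the mitotic entry switch 1 rose and 1 fell, against 1 and 3 with library totals alone. Cdc25a, the phosphatase that CHK1 marks for destruction, stood at 83.98, 57.3, 55.5, 76.3 and 63.99 CPM in WT zygotes 1 to 5, and from 19.9 to 38.7 CPM with a median of 31.9 in the 6 R442Q zygotes, without overlap (log2 fold change -1.18 ± 0.19 (SE), adjusted p = 0.00085). Ccna2, cyclin A2, rose from 358 to 479.9 CPM (log2 fold change 0.42 ± 0.11 (SE), adjusted p = 0.016), and Cdk1 was at 116 ± 16.97 CPM (SD, n = 5) for WT and 104 ± 18.5 CPM (SD, n = 6) for R442Q and did not pass (adjusted p = 0.51). Of 25 G1 and S cyclins, kinases and regulators 3 rose and 1 fell, but 1 and 2 with library totals alone and 0 and 3 with log2(FPKM + 1). Cdk7, the CDK-activating kinase, fell from 37.8 to 22.8 CPM (log2 fold change -0.73 ± 0.16 (SE), adjusted p = 0.0058), while the rise of Ccne1, cyclin E1, from 10.2 to 18.4 CPM, was less stable (log2 fold change 0.84 ± 0.23 (SE), adjusted p = 0.021; lost without WT zygote 1 or 4 or R442Q zygote 1, and in 3 FPKM fits).

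More genes that hold and separate chromosomes were called lower than higher, but few of them in the fit with late 2-cell embryos. Of 59 tested genes of the spindle checkpoint, kinetochore and mitotic exit 2 rose and 13 fell, although 5 rose and 10 fell with upper-quartile factors and 0 and 0 passed in the fit with late 2-cell embryos. Pttg1, securin, which restrains separase, rose from 2199 to 2998 CPM (log2 fold change 0.45 ± 0.07 (SE), adjusted p = 0.0011; lost with FPKM without a filter). Bub1b, the checkpoint kinase BUBR1, stood at 92.5, 232, 79.1, 152 and 123.2 CPM in WT zygotes 1 to 5, and from 27.5 to 82.2 CPM with a median of 42.1 in the 6 R442Q zygotes, with overlap at the highest R442Q zygote (log2 fold change -1.42 ± 0.29 (SE), adjusted p = 0.0044). Anapc4, of the anaphase-promoting complex, fell from 95.3 to 51.7 CPM (log2 fold change -0.88 ± 0.18 (SE), adjusted p = 0.0048). Of 25 tested condensin and cohesin genes 1 rose and 6 fell. The condensin genes Smc4 and Ncapg fell from 135 to 54.5 CPM and from 315 to 122.7 CPM (log2 fold changes -1.31 and -1.36, adjusted p = 0.00017 and 0.00023), and the cohesin subunit Smc3 from 41.3 to 16.1 CPM (log2 fold change -1.35 ± 0.23 (SE), adjusted p = 0.0012); these 3 also passed in the fit with late 2-cell embryos. Of 30 tested kinesins 2 rose and 4 fell, and 0 and 0 passed in that fit. Kif22, a chromosome arm motor, went from 150.4 to 83.3 CPM (log2 fold change -0.85 ± 0.15 (SE), adjusted p = 0.0019). Of 74 tubulin and centrosome genes 5 rose and 8 fell, turning to 8 and 5 with upper-quartile factors and to 1 and 1 in the fit with late 2-cell embryos. Pcnt, pericentrin, and Haus3, of the augmin complex, fell by 0.83 and 1.35 on the log2 scale (adjusted p = 0.0012 and 0.0011), and Tubg1, gamma-tubulin, rose by 0.69 (adjusted p = 0.0015).

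Among 50 tested genes of replication licensing and the fork 5 rose and 11 fell. In the fit with late 2-cell embryos 0 and 0 were called, as for homologous recombination and for excision, mismatch and end-joining repair. Orc5 and Orc1, of the origin recognition complex, fell from 362 to 224 CPM and from 85.7 to 49.5 CPM (log2 fold changes -0.69 and -0.79, adjusted p = 0.00094 and 0.0029). Gmnn, geminin, the inhibitor of licensing, rose from 183 to 269 CPM (log2 fold change 0.55 ± 0.11 (SE), adjusted p = 0.0028). Mcm2, of the helicase, went from 176 to 283 CPM (log2 fold change 0.68 ± 0.16 (SE), adjusted p = 0.0096; lost with FPKM without a filter). Of 28 genes of deoxynucleotide supply 5 rose and 1 fell, but 1 rose and 4 fell with log2(FPKM + 1) and 1 rose and 0 fell in the fit with late 2-cell embryos. The median of the list was -0.14, with 17 members below 0, and 1 of the 5 passed the filter through the R442Q zygotes alone. Dut, dUTPase, rose from 262 to 359 CPM (log2 fold change 0.45 ± 0.11 (SE), adjusted p = 0.01). Dtymk, thymidylate kinase, fell from 28.6 to 16.1 CPM (log2 fold change -0.83 ± 0.18 (SE), adjusted p = 0.0068). In homologous recombination and the Fanconi pathway 3 of 27 tested genes fell and 0 rose, but 2 and 2 passed with upper-quartile factors; among those that fell was Brip1, a helicase that binds BRCA1 (log2 fold change -0.62 ± 0.15 (SE), adjusted p = 0.0097). In excision, mismatch and end-joining repair 2 of 35 fell (5.71%, near the 6.92% of all tested genes) and 0 rose. Among those that fell was Msh3, of mismatch repair (log2 fold change -0.49 ± 0.11 (SE), adjusted p = 0.0086).

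Of 8 tested genes of the zona pellucida and egg surface 4 fell and 0 rose, with a median of -0.40. The fit with late 2-cell embryos called 1 lower and 0 higher. For the subcortical maternal complex, the growth factors and meiotic regulators, the oogenesins and the F-box WD genes that fit called 0 and 0. Zp3 (ENSMUSG00000004948.12; GRCm38 chr5:135980099-135988624, + strand), which encodes the zona protein that sperm bind, stood at 125, 127, 81.9, 102 and 128 CPM in WT zygotes 1 to 5, and from 27.3 to 57.8 CPM with a median of 44.3 in the 6 R442Q zygotes, without overlap (log2 fold change -1.35 ± 0.17 (SE), adjusted p = 0.0002). Izumo1r, the egg receptor for sperm IZUMO1, fell from 255 to 184 CPM (log2 fold change -0.47 ± 0.11 (SE), adjusted p = 0.011). The subcortical maternal complex moved both ways, with 1 rise and 2 falls of 11 tested. Its member Ooep stood at 1659, 2320.0, 1683, 1629 and 1924 CPM in WT zygotes 1 to 5, and from 804 to 1337 CPM with a median of 1022 in the 6 R442Q zygotes, without overlap (log2 fold change -0.82 ± 0.12 (SE), adjusted p = 0.00073). Zbed3, at 16041 ± 557 CPM (SD, n = 5) for WT and 21272 ± 2365 CPM (SD, n = 6) for R442Q, rose (log2 fold change 0.41 ± 0.08 (SE), adjusted p = 0.0034; lost with FPKM without a filter). Of 12 oocyte NLRP genes 3 fell and 0 rose, against 1 and 0 in that fit. Nlrp14 fell from 1314 to 604 CPM (log2 fold change -1.12 ± 0.20 (SE), adjusted p = 0.002). Among 21 growth factors and meiotic regulators 1 rose and 4 fell: Fgf8 from 38.2 to 16.1 CPM (log2 fold change -1.25 ± 0.18 (SE), adjusted p = 0.00052), the kinase Mos from 33.7 to 11.7 CPM (log2 fold change -1.52 ± 0.35 (SE), adjusted p = 0.0086), and the phosphodiesterase Pde3a and the calcium-dependent kinase Camk2g by 0.72 and 0.51 on the log2 scale. Gdf9, at 669.5 ± 178 CPM (SD, n = 5) for WT and 466 ± 112 CPM (SD, n = 6) for R442Q, did not pass (adjusted p = 0.065). Of 12 oogenesins and oocyte secreted proteins 1 rose and 4 fell, and of 16 oocyte F-box WD genes 3 fell and 0 rose, led by Fbxw21 (log2 fold change -0.95 ± 0.19 (SE), adjusted p = 0.0035). Among 65 genes that store, polyadenylate or degrade maternal mRNA 9 rose and 13 fell, against 10 and 10 with upper-quartile factors and 1 and 0 in the fit with late 2-cell embryos. Cpeb1, which binds the cytoplasmic polyadenylation element, fell from 294 to 166 CPM (log2 fold change -0.82 ± 0.12 (SE), adjusted p = 0.00053). Igf2bp1, an mRNA-binding protein, rose from 0.205 to 3.22 CPM (log2 fold change 3.96 ± 0.69 (SE), adjusted p = 0.0016; lost with FPKM without a filter), having passed the filter through the R442Q zygotes alone.

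Of 21 tested genes of DNA methylation 1 rose and 2 fell, although the median was 0.06, with 14 members above 0. The median turned to -0.06 with library totals and to -0.13 with log2(FPKM + 1), each with 1 higher and 4 lower. The fit with late 2-cell embryos called 0 and 0, as it did for the Polycomb, H3K4, remodelling and histone variant lists below. Dnmt1, the maintenance methyltransferase, stood at 566, 718, 579.5, 374 and 539.7 CPM in WT zygotes 1 to 5, and from 174 to 325 CPM with a median of 213 in the 6 R442Q zygotes, without overlap (log2 fold change -1.29 ± 0.17 (SE), adjusted p = 0.00027). In the list of H3K9 methylation and heterochromatin 1 of 19 rose and 5 fell, against 1 and 1 in the fit with late 2-cell embryos. Setdb1, a methyltransferase that silences retroelements, fell from 264 to 162 CPM (log2 fold change -0.71 ± 0.12 (SE), adjusted p = 0.0014) and also passed in the fit with late 2-cell embryos; Ehmt1 and Mphosph8 fell by 0.76 and 0.77 on the log2 scale (adjusted p = 0.0069 and 0.0086). Polycomb genes gave 3 higher and 4 lower of 31 with a median of 0.05, turning to 4 and 2 with upper-quartile factors and to 1 and 5 with library totals alone; Mtf2 fell from 69.03 to 45.9 CPM (log2 fold change -0.59 ± 0.13 (SE), adjusted p = 0.006), and Ezh2, at 365 ± 43.2 CPM (SD, n = 5) for WT and 389.5 ± 34.2 CPM (SD, n = 6) for R442Q, did not pass. Of 18 genes of H3K4 methylation 2 rose and 1 fell, but 1 and 2 with library totals or log2(FPKM + 1); Rbbp5 fell from 83.9 to 46.2 CPM (log2 fold change -0.86 ± 0.12 (SE), adjusted p = 0.00045). Among 38 remodelling factors 2 rose and 4 fell, with Smarca2 up from 214 to 317 CPM (log2 fold change 0.57 ± 0.10 (SE), adjusted p = 0.0022) and Chd9 down by 0.57 on the log2 scale. Of 29 histone variants and chaperones 3 rose and 5 fell, with a median of 0.04. This median turned to -0.08 with library totals (1 higher, 6 lower), -0.13 with log2(FPKM + 1) (2 and 8) and -0.03 without the length and GC trend (1 and 6). H3f3a, an H3.3 gene, fell from 703 to 479.5 CPM (log2 fold change -0.55 ± 0.10 (SE), adjusted p = 0.0016). Among 28 imprinted genes 2 rose and 4 fell, against 1 and 2 in the fit with late 2-cell embryos. Snhg14, the host of the small RNAs of the Prader-Willi region, fell from 53.6 to 12.6 CPM (log2 fold change -2.09 ± 0.37 (SE), adjusted p = 0.0017) and Ube3a, which overlaps it on the opposite strand, from 35.7 to 16.4 CPM (log2 fold change -1.12 ± 0.19 (SE), adjusted p = 0.0014), so that without strand part of one may be counted as the other.

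Of 85 tested genes of RNA polymerase II, its general factors and Mediator 7 rose and 16 fell, with a median of -0.16, against 0 and 1 in the fit with late 2-cell embryos. Polr2d fell from 130.0 to 66.4 CPM (log2 fold change -0.97 ± 0.14 (SE), adjusted p = 0.00053) and Med17, of the Mediator head, from 226 to 110.5 CPM (log2 fold change -1.03 ± 0.18 (SE), adjusted p = 0.0018). Of 93 splicing factors 5 rose and 11 fell, against 0 and 2 in that fit. Rbm17 fell from 283 to 137 CPM (log2 fold change -1.05 ± 0.17 (SE), adjusted p = 0.001) and Snrnp40 from 60.3 to 29.5 CPM (log2 fold change -1.03 ± 0.14 (SE), adjusted p = 0.00035). Snrpd3, a core Sm protein, rose from 56.6 to 93.4 CPM (log2 fold change 0.72 ± 0.12 (SE), adjusted p = 0.0011; lost with FPKM without a filter). Of 52 nuclear pore and transport genes 1 rose and 6 fell, against 5 and 6 with upper-quartile factors and 1 and 0 in the fit with late 2-cell embryos. Nup107, of the pore scaffold, fell from 217 to 122 CPM (log2 fold change -0.83 ± 0.14 (SE), adjusted p = 0.0012).

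**Figure D5:**
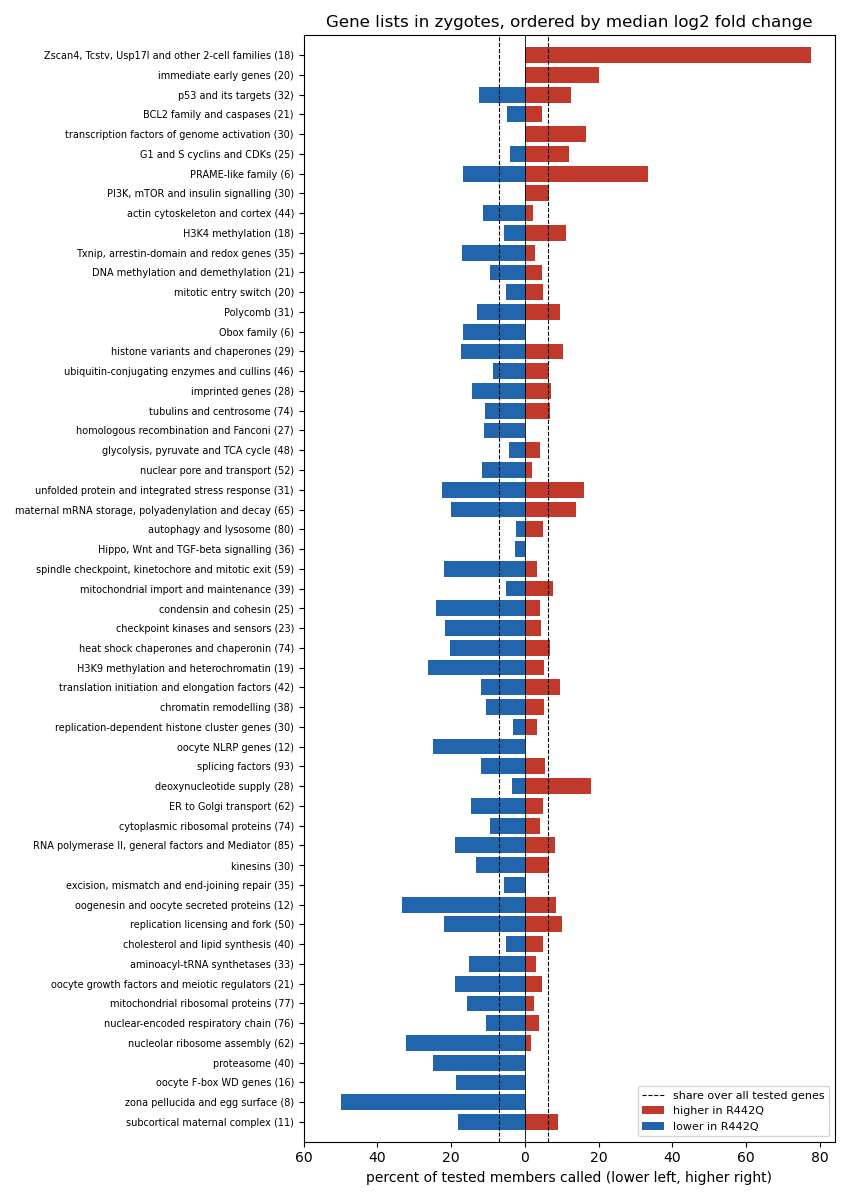
Percent of the tested members of each of 55 gene lists called higher (red, right) or lower (blue, left) in R442Q zygotes, ordered by the median log2 fold change of the list, with the number tested in brackets. Dashed lines mark the shares over all 12420 tested genes, 6.3% higher and 6.92% lower; 14 of 18 tested genes of the 2-cell families were higher, 9 of which passed the filter on low counts through the R442Q zygotes alone.

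Of 77 tested mitochondrial ribosomal proteins 2 rose and 12 fell, with a median of -0.25, although the fit with late 2-cell embryos called 1 higher and 0 lower. Of 76 nuclear-encoded genes of the respiratory chain 3 rose and 8 fell, with a median of -0.31. In that fit 0 and 0 were called, as for mitochondrial import and maintenance, glycolysis and the TCA cycle, ER to Golgi transport, actin and cortex, and PI3K, mTOR and insulin signalling. Mrps31 fell from 21.96 to 8.46 CPM (log2 fold change -1.37 ± 0.23 (SE), adjusted p = 0.0011), Uqcrc2, of complex III, from 234 to 132 CPM (log2 fold change -0.82 ± 0.13 (SE), adjusted p = 0.00073). Sdhc, of complex II, went from 104 to 68.2 CPM (log2 fold change -0.61 ± 0.13 (SE), adjusted p = 0.0046). Genes of mitochondrial import gave 3 higher and 2 lower of 39 with a median of -0.09, but 2 and 5 with library totals, 1 and 7 with log2(FPKM + 1) and 4 and 6 with TMM-scaled FPKM. In glycolysis, pyruvate use and the TCA cycle 2 of 48 rose and 2 fell, against 3 and 1 with upper-quartile factors, with Slc16a1, the lactate and pyruvate carrier, down from 62.9 to 31.01 CPM (log2 fold change -1.02 ± 0.17 (SE), adjusted p = 0.001). In cholesterol and lipid synthesis 2 of 40 rose and 2 fell, against 1 and 0 in the fit with late 2-cell embryos. Elovl5, which elongates fatty acids, fell from 49.5 to 23.9 CPM (log2 fold change -1.05 ± 0.18 (SE), adjusted p = 0.0016). Autophagy and lysosome genes gave 4 higher and 2 lower of 80 with a median of -0.05, but 2 and 10 with library totals, 1 and 8 with log2(FPKM + 1) and 1 and 1 in the fit with late 2-cell embryos. Ctsl, the protease cathepsin L, rose from 6.32 to 23.1 CPM (log2 fold change 1.86 ± 0.33 (SE), adjusted p = 0.0017; lost with FPKM without a filter). Atg12 fell from 172 to 95.9 CPM (log2 fold change -0.84 ± 0.13 (SE), adjusted p = 0.00086). Of 62 genes of ER to Golgi transport 3 rose and 9 fell, with Sec23ip down from 87.5 to 48.4 CPM (log2 fold change -0.85 ± 0.16 (SE), adjusted p = 0.0027). Of 44 actin and cortex genes 1 rose and 5 fell, although the median was 0.09, with 28 members above 0. That median turned to -0.02 with library totals (0 higher, 7 lower) and to -0.07 with log2(FPKM + 1) (1 and 7). Rdx, radixin, which links actin to the membrane, fell from 479 to 215 CPM (log2 fold change -1.15 ± 0.17 (SE), adjusted p = 0.00047). In PI3K, mTOR and insulin signalling 2 of 30 rose and 0 fell, which became 1 and 2 with library totals, and in the Hippo, Wnt and TGF-beta list 0 of 36 rose and 1 fell, Ctnnb1. Tsc2, which restrains mTOR, rose from 837 to 1376 CPM (log2 fold change 0.72 ± 0.14 (SE), adjusted p = 0.0029); Mtor and Yap1 did not pass.

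The genes called in zygotes were also measured in the late 2-cell embryos, whose WT and R442Q groups are other embryos. There 580 of 13883 tested genes were called (4.18%), 170 higher (1.22%) and 410 lower (2.95%). That count rests on single embryos: it was 351, 142, 283 and 209 without WT embryo 1, 2, 3 or 4, and 372 and 891 without R442Q embryo 2 or 3. Of the 783 genes higher in zygotes 761 were tested, and 10 were called higher and 44 lower, which is 5.88% of the late 2-cell list of higher genes and 10.7% of the list of lower genes. Of the 860 lower in zygotes 839 were tested, and 10 were called higher and 27 lower, 5.88% and 6.59% of those lists. Their median log2 fold changes at the late 2-cell stage were -0.06 and 0.10, beside 0.07 over all genes tested there. Of the 29 tested genes of the 2-cell families 0 were called there, with a median of 1.23. Of 62 nucleolar genes 0 were higher and 11 lower, with a median of -0.47, and of 46 proteasome genes 1 was higher and 0 lower, with a median of 0.42. Ooep, lower in R442Q zygotes, was at 2.29 ± 0.35 (log2 fold change, SE, adjusted p = 0.0065) in late 2-cell embryos. The difference of the genotype effect between the stages was not tested.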

How the data were processed

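Single zygotes were sequenced as poly(A)-primed SMART-seq2 libraries, per the labels' protocols. The authors deposited a table of estimated counts per gene and a table of FPKM values; the submitters' processing notes name RSEM and mm10, and the aligner, annotation and use of strand are not given in the sources used here. The deposited expected counts were rounded to whole numbers and tested with edgeR 4.0.16 (TMM factors, filterByExpr with a minimum count of 10, quasi-likelihood test, Benjamini-Hochberg threshold of 0.05), with zygotes and late 2-cell embryos fitted apart. CPM values are scaled by TMM. The FPKM values deposited by the authors were tested with limma 3.58.1 as log2(FPKM + 1) for genes at 1 FPKM or more in at least 5 zygotes, and DESeq2 1.42.0 was run as an alternative on the counts. On simulated counts, with 200 of 12420 genes changed, the test recovered 83% of 4-fold and 50% of 2-fold changes and called 5 unchanged genes. IDs, positions and classes come from GENCODE M21 (98.4% of symbols matched). R 4.3.3 was used.

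The members and the gene lists were chosen with earlier results of these data known. Genes named are Chek1; the 6 largest rises and 6 largest falls among called genes without overlap and with at least 10 CPM in the higher genotype; and in each list up to 4 called members with the smallest p, plus the first member written. Genes outside this rule, chosen after their values were seen, are the genes of the 2-cell families other than Zscan4f, Gm6763 and Usp17la, the set joined by shared sequence with Tmem72, CT010467.1, the genes of the chromosomal runs, the carriers of the ER element, and Gadd45g, Mdm2, Hspa8, the Cct genes, Bag3, Ncl, Nop58, Polr1d, Polr1e and Nip7. So are Gm38271, D10Wsu102e, A530040E14Rik, Slc25a20, Gm37110 and Gm44183. Leaving out TEC genes was an alternative added after seeing the data. Title and description numbers of the zygotes differ and neither marks a shared source. Not every gene the rule picks is described: those in the text were selected with their values and the stability of their calls known, and the others, among them unstable calls such as Tle6, E2f4 and Tfdp1, enter only the counts.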

Additional observations from a re-analysis of the deposited data

Results flagged for a closer look

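In 20 of 464 groups of a named gene 1 zygote stood apart from the rest of its genotype by Dixon's criterion, and chance alone gives about 1 in 20. Among R442Q zygotes, zygote 4 stood apart for Cdk1 (69.21 CPM), Kif4 (73.24 CPM), Obox2 (751.3 CPM), Myc (1.465 CPM) and Setdb1 (117.1 CPM). R442Q zygote 2 did for Orc1 (30.19 CPM), Smarca4 (23.18 CPM), Taf1a (77.7 CPM) and Mrpl47 (20.18 CPM), zygote 3 for Zbed3 (16880 CPM) and Mos (25.4 CPM), zygote 1 for Fancl (2.762 CPM) and Scd1 (6.444 CPM), and zygote 6 for Yap1 (52.92 CPM). Among WT zygotes, zygote 2 stood apart for Atrx (348.1 CPM) and Glrx (438.4 CPM), zygote 5 for Upf2 (26.68 CPM) and Rbm17 (235.6 CPM), zygote 4 for Ercc5 (18.55 CPM) and zygote 3 for Zp1 (48.57 CPM).

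For 10 named genes all R442Q embryos lay on one side of all WT embryos in zygotes and on the other side in late 2-cell embryos. The difference between stages was not tested. Of the 229 named genes 206 were called in zygotes, so a lack of overlap there is largely built in. Over all tested genes the zygote groups did not overlap in 8.71%. The share on opposite sides at both stages was not counted, so the 10 cannot be set against it. The late 2-cell log2 fold changes were -2.64 for Mcm2, -0.72 for Eif4g2, -2.23 for Pfkm and -0.93 for Sqle, which were higher in R442Q zygotes, and 2.29 for Ooep, 1.64 for Fbxw21, 1.29 for Obox2, 1.03 for Eif3e, 0.71 for Ube2t and 1.48 for Timm8a2, which were lower.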

How the results depend on the processing

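The count of 1643 genes called in zygotes fell to 270 when late 2-cell embryos shared the fit and to 953 with FPKM without a filter; the cause was not tested. It was 1622 with RLE, 1672 with upper-quartile factors, 1840 with library totals, 2093 with DESeq2, and 1125 to 1718 when 1 zygote was left out. Zygotes with the same replicate number did not deviate together (correlations of -0.057 to 0.062 by title number and -0.072 to 0.041 by description number), and with the number as a replicate block 1217 and 1004 genes were called. In late 2-cell embryos the count of 580 became 1683 with DESeq2, 889 without a filter, 2507 fitted with zygotes, 58 with the replicate block, and 142 to 891 without single embryos. The log2 difference of Chek1 stayed between 0.15 and 0.37 without single zygotes. The reported genes that changed sign, Ezh2, Mtor and Yap1, were not called. Ezh2 had -0.025 with library totals, -0.0730 with FPKM and -0.0732 with a pseudocount of 0.1. Mtor had 0.046 with FPKM, 0.0506 with a pseudocount of 0.1, 0.157 with TMM-scaled FPKM, and -0.17 to 0.046 without single zygotes. Yap1 had -0.0479 with library totals, -0.0265 with FPKM, -0.0281 with a pseudocount of 0.1, and -0.0242 to 0.187 without single zygotes. Genes at a few CPM are limited by counting error.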
